A study of Mus musculus with 9 samples.

Results

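The genes described here encode the antioxidant, glutathione and thioredoxin systems of the cell. They were chosen by symbol alone from the deposited table: peroxiredoxins, glutathione peroxidases, glutathione transferases, superoxide dismutases, catalase, thioredoxin and glutaredoxin genes, the enzymes that make and reduce glutathione, sulfiredoxin, the heme oxygenases, the NAD(P)H quinone dehydrogenases, and Nfe2l2 with its inhibitor Keap1. Txnip and Txndc5, which the symbol pattern also took in, were left out. The rule found 55 of the 14940 genes in the table, and 54 of them entered the tests. Gsta3, an alpha-class glutathione transferase, was not tested because its values (0.903 to 6.08 over the 9 libraries) stayed under the minimum of 10 in 3 libraries. Prdx1, Gpx4 and Sod3 were not analysed here.

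Superoxide dismutases turn superoxide into hydrogen peroxide, which catalase, glutathione peroxidases and peroxiredoxins then reduce. Glutathione peroxidases draw on reduced glutathione and most peroxiredoxins on thioredoxin, and glutathione reductase and the thioredoxin reductases restore both with NADPH. Many of these genes are transcribed under NRF2 (encoded by Nfe2l2), which KEAP1 holds at a low level until oxidants or electrophiles modify it. Haematopoietic stem cells are known for a low content of reactive oxygen species, whereas granulocytes and monocytes produce them in quantity.

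RNA was measured in Lineage-/Sca1+/cKit+ (LSK) cells, the bone marrow fraction that holds haematopoietic stem cells and early progenitors, sorted from 9 C57BL/6 mice. In 3 mice, experimental autoimmune encephalomyelitis (EAE) was induced with complete Freund's adjuvant and the myelin peptide MOG35-55, and SR59230A, a beta 3 adrenergic antagonist, was given during the 3 days that followed; these are called treated mice from here on. The second group held 3 immunized mice without the antagonist, at day 3, and the third held 3 naive mice at day 0. No group received adjuvant without peptide and none is labelled as given a vehicle, so adjuvant, peptide and day cannot be told apart in the comparisons with naive mice. The comparison of treated with EAE mice addresses the antagonist, and without a vehicle group the antagonist and the procedure of giving it cannot be told apart there either. The labels count the libraries as separate mice.

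The deposited values summed to between 8641735 and 10387955 per library. They were whole numbers but not independent read counts, since they obeyed 2 linear relations across the 9 libraries, so the sequencing depth is unknown. A value below is the deposited value divided by a median-of-ratios factor for its library, and is comparable between libraries but not between genes, since it takes no account of transcript length. Differences are log2 differences of value + 1 with their SE, a scale on which the changes of low genes are understated. They were tested, 2-sided, with limma-trend over 12892 genes, with Benjamini-Hochberg adjustment over all of them and a threshold of 0.05. The sort gate genes Kit, Ly6a and Cd34 were above 0 in all 9 libraries. Against naive mice, 2 of these 3 passed in both comparisons. Kit was lower, by 0.45 in treated and 0.43 in EAE mice on the log2 scale. Ly6a, which encodes Sca1, was higher, by 0.68 in treated and 0.46 in EAE mice. Of 15 markers of granulocyte-monocyte progenitors, 13 rose in treated and 14 in EAE mice against naive mice, and their summed value was 35209 to 36502 in treated, 32512 to 41042 in EAE and 12793 to 15076 in naive mice, with no marker listed at 0. Of 11 stem cell markers in the table, 6 fell in treated and 7 in EAE mice against naive mice, with sums of 4468 to 5124 in treated, 4425 to 4793 in EAE and 9420 to 10746 in naive mice. Of 12 mature neutrophil markers, 4 rose and 1 fell in treated mice and 2 rose and 1 fell in EAE mice against naive mice, and their sum was 8195 to 17561 in treated, 4080 to 17239 in EAE and 3199 to 7369 in naive mice. Of 11 erythroid markers tested, 3 rose and 1 fell in treated mice and 2 rose and 3 fell in EAE mice, and the list summed to 7053 to 7519 in treated, 5546 to 6016 in EAE and 10603 to 11621 in naive mice. Much of that sum was Car2, which averaged 3547 in treated, 3122 in EAE and 8312 in naive mice. The differences from naive mice were above 0 for 10 of the 11 markers in treated and 3 in EAE mice. An erythroid marker, Car1, was the 1 gene of all tested that passed in treated against EAE mice, higher in treated mice. Of 5 stromal and endothelial markers tested, 1 fell in treated and 2 in EAE mice against naive mice. Of 6 lineage antigens tested, 1 rose in treated and 1 in EAE mice against naive mice, and none fell. The differences from naive mice were above 0 for 3 of the 6 in each comparison. Among the lineage antigens, Cd8a was listed at 0 in 2 EAE libraries. The part of these populations in the results below was not tested, and in bulk RNA a change in the share of a cell type and a change in RNA per cell cannot be told apart.

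In immunized LSK cells a few genes of the glutathione and quinone branches stood higher than in naive cells, while most of the antioxidant genes did not pass the test. Gclm, Gsr and Nqo2 were higher in treated and in EAE mice than in naive mice. In EAE against naive mice, 6 of 54 genes passed, 4 higher (Gclm, Gsr, Nqo2 and Txndc9) and 2 lower (Srxn1 and Txndc16). This is a share of 11.1%, against 14.4% of all 12892 genes, of which 9.24% were higher and 5.14% lower. In treated against naive mice, 7 passed, all higher (Gclm, Gsr, Nqo2, Gpx1, Mgst2, Txndc11 and Txndc17), or 13.0% against 15.0% of all genes, with 10.4% higher and 4.66% lower. In treated against EAE mice none of the 54 passed, and 0.00776% of all genes did. The shares of antioxidant genes that passed were thus near those of all genes and are not a result about these genes as a set. Both comparisons with naive mice use the same 3 naive libraries.

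Values of the 3 groups often separated without passing. EAE and naive libraries of 22 of 54 genes did not overlap, 13 higher and 9 lower in EAE mice, while 39.5% of all genes separated, 21.1% higher and 18.4% lower. For treated against naive mice, 30 genes separated, 19 higher and 11 lower, beside 48.8% of all genes, 26.7% higher and 22.2% lower. At an unadjusted limma-trend p under 0.05, 13 genes passed for treated mice and 19 for EAE mice, where 31.2% and 29.0% of all genes did. The median difference of the 54 genes was 0.10 in EAE against naive mice, with -0.0018 over all genes, and 0.085 in treated against naive mice, with 0.0098 over all genes. The antioxidant genes together held 0.572% to 0.596% of all values in treated libraries, 0.522% to 0.606% in EAE libraries and 0.520% to 0.549% in naive libraries. Without Gpx1 and Sod1, which made up 33.1% to 40.8% of that sum in the 9 libraries, their share was 0.346% to 0.353% in treated, 0.342% to 0.379% in EAE and 0.348% to 0.360% in naive libraries, so the groups overlapped.

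**Figure D1:**
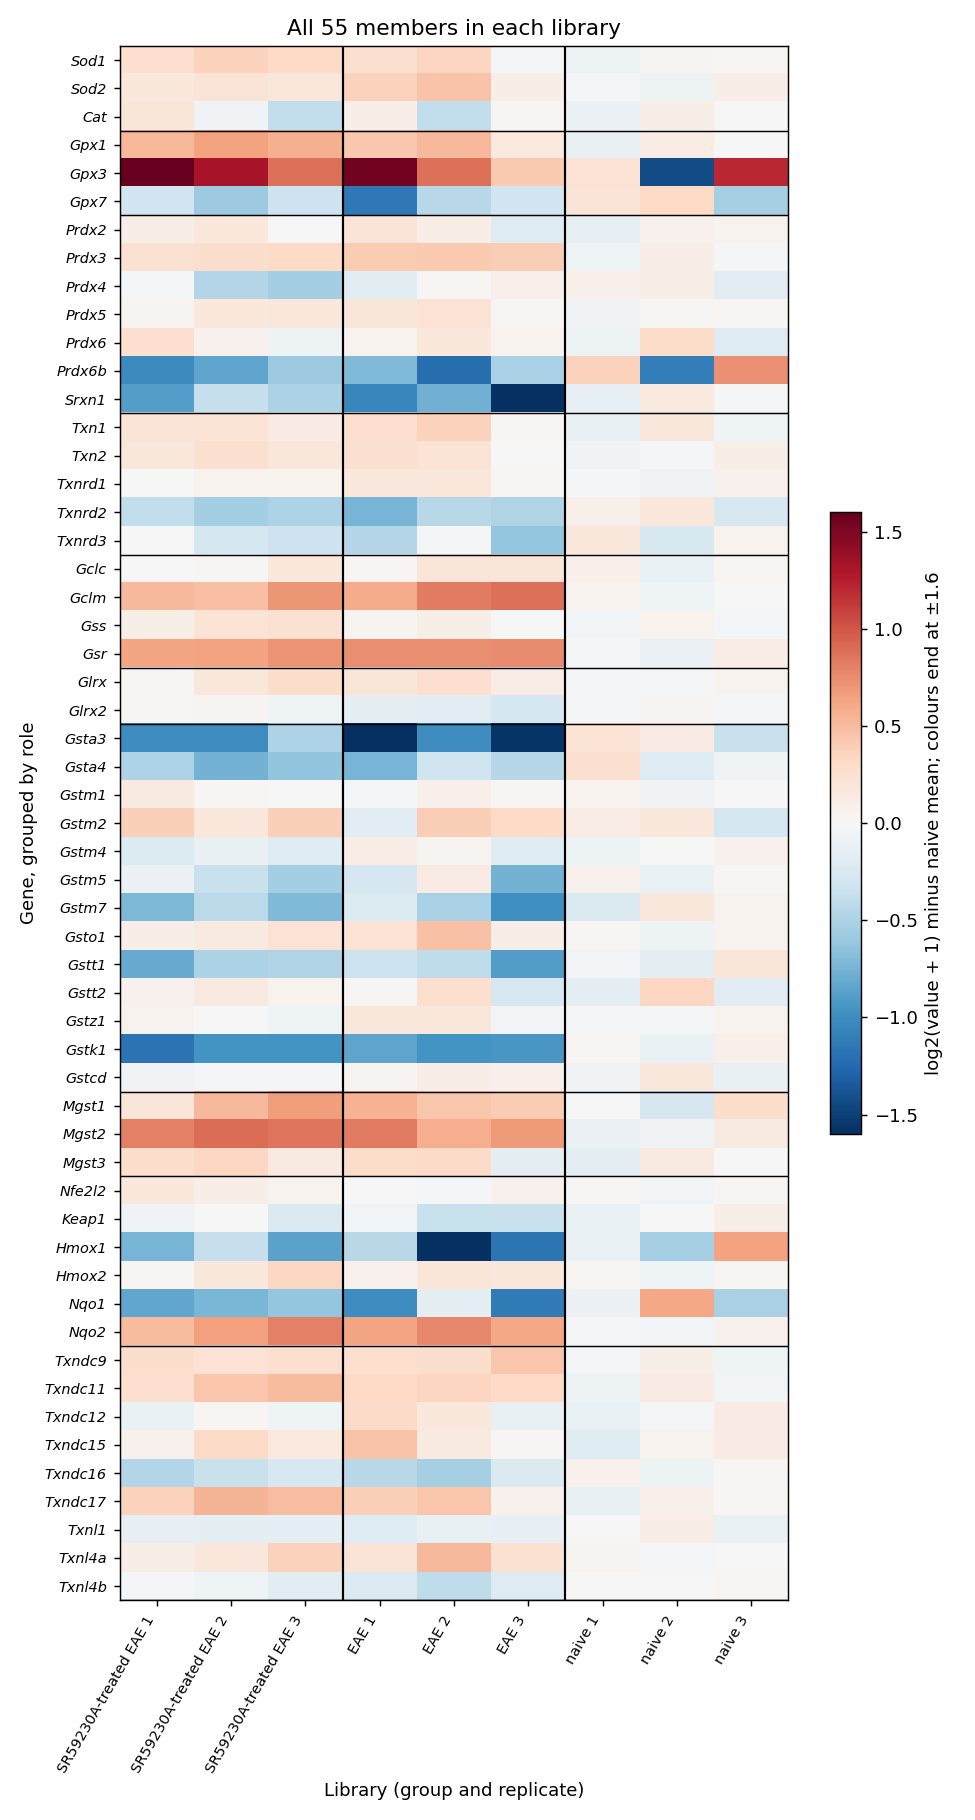
Level of each antioxidant, glutathione and thioredoxin gene in the 9 libraries, as log2(scaled value + 1) minus the mean of the 3 naive libraries, with genes in rows by role and treated, EAE and naive libraries in columns from left to right. Gclm, Gsr and Nqo2 are red in all 6 immunized libraries, Srxn1 and Txndc16 are blue in them, and colours end at ±1.6.

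The number of genes that passed changed when the model was refitted without 1 library. Any 8 of the libraries obey 1 of the linear relations where all 9 obey 2, so each of these refits, here and below, also had 1 covariate for a missing direction in place of 2, with 4 residual degrees of freedom as before, and the part of the library and that of the covariate were not tested apart. Set against naive mice, EAE mice gave 3 calls without naive replicate 1, 14 without EAE replicate 3, 11 without naive replicate 2 or without treated replicate 1, and 10 without treated replicate 3. For treated against naive mice it was 4 without treated replicate 2, 11 without EAE replicate 1 and 12 without EAE replicate 2, EAE replicate 3 or naive replicate 2. Calls over all tested genes moved as well. The full fits gave 1854 of 12892 in EAE and 1938 in treated against naive mice. EAE mice gave 1242 of 12655 without naive replicate 1 and 2629 of 12825 without EAE replicate 3. Treated mice gave 1354 of 12876 without treated replicate 2. They gave 2727 of 12822, 2948 of 12800 and 3309 of 12825 without EAE replicates 1, 2 and 3. EAE mice gave 2404 of 12841, 1967 of 12876 and 2330 of 12868 without treated replicates 1, 2 and 3. Such refits left out no library of the groups compared. A gene that passed in them, here and below, stands beside this general rise in calls. The libraries also differed in the share of values in genes for olfactory, vomeronasal and taste receptors, which was 0.0817% to 0.101% in treated, 0.108% to 0.122% in EAE and 0.153% to 0.183% in naive libraries. With that share as a term in the model, which left 3 residual degrees of freedom, no antioxidant gene passed in any comparison. Of all 12892 genes, 29 passed with the term in treated and 100 in EAE against naive mice, so the loss was not particular to the antioxidant genes. With the term, the SE of the called antioxidant differences was 3.45 to 3.74 times as large in treated and 2.43 to 2.61 times as large in EAE against naive mice. The differences themselves kept their sign: 6 of 7 in treated mice and 3 of 6 in EAE mice were larger with the term, and those of Txndc11 in treated mice and of Srxn1, Txndc9 and Txndc16 in EAE mice were smaller. The share does not overlap between the groups, and its part and the group's cannot be told apart in these libraries. Without scaling, the median of all genes in treated against naive mice moved to -0.11, and the share of calls that were higher was 45.6%, against 69.0% with median-of-ratios scaling and 46.6% with upper-quartile scaling. The share in EAE against naive mice was 64.2%, with 57.2% without scaling and 46.9% with upper-quartile scaling.

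Genes of glutathione synthesis and reduction gave the smallest adjusted p of the 54 genes in EAE against naive mice. Gclm encodes the modifier subunit of glutamate-cysteine ligase, the rate-limiting enzyme of glutathione synthesis. Its value was 886, 862 and 1007 in treated mice, 937, 1091 and 1140.2 in EAE mice and 646, 589 and 624 in naive mice. All 6 immunized libraries lay above all 3 naive ones, and the treated and EAE libraries overlapped. Against naive mice the difference was 0.57 ± 0.11 in treated mice (limma-trend, Benjamini-Hochberg adjusted p = 0.00582), or 1.48-fold. In EAE mice it was 0.77 ± 0.11 (limma-trend, Benjamini-Hochberg adjusted p = 0.00113), or 1.70-fold. Gclc, the catalytic subunit of the same enzyme, did not pass: it averaged 997 ± 61.7 in treated, 1048 ± 66.0 in EAE and 953 ± 63.1 in naive mice (SD, n = 3 each), with a difference of 0.14 ± 0.10 in EAE against naive mice (limma-trend, Benjamini-Hochberg adjusted p = 0.391). Gss, glutathione synthetase, which adds glycine in the second step, averaged 432 ± 25.2 in treated, 389.8 ± 14.5 in EAE and 379 ± 14.7 in naive mice and passed in no comparison.

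Gsr encodes glutathione reductase, which returns oxidized glutathione to its reduced form with NADPH. It had values of 261, 263 and 277 in treated mice, 283, 283 and 285 in EAE mice and 166, 157 and 182 in naive mice. The immunized libraries were again all above the naive ones, and each treated library was below each EAE library, by little. The differences from naive mice were 0.66 ± 0.12 in treated mice and 0.75 ± 0.12 in EAE mice (limma-trend, Benjamini-Hochberg adjusted p = 0.00460 and 0.00231). Between treated and EAE mice the difference of Gsr was -0.089, with a 95% interval of -0.35 to 0.17. The 3 EAE values of Gsr were almost equal, and because the deposited values lack 2 directions of variation within the groups, such closeness can understate the spread between mice.

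The promoter of Gclm is shown because the gene rose in both immunized groups and because the RefSeq sequence holds a match to TGACNNNGC, the core of the antioxidant response element that NRF2 binds with small MAF proteins. The window is the 250 bases before the annotated start on the + strand of mouse GRCm38.p6, chr3:122245307-122245556. Capitals mark the match, which lies 134 to 126 bases before the start and reads TGACNNNGC on the opposite strand.
Gclm promoter: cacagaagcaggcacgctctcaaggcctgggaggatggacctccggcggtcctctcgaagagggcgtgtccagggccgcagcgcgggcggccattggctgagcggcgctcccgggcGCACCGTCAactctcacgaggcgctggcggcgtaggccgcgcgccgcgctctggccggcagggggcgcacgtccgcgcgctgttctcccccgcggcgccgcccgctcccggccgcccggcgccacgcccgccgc

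Sequence tables from RefSeq gave a promoter for 46 of the 55 genes. Entries were not found for Gclc, Gsr, Gsta4, Gstt2, Hmox1, Prdx6, Prdx6b, Txnl1 and Txnl4a. The motif TGACNNNGC, sought on both strands of the 250 bases before each start, was present for 9 of the 46 genes (19.6%) and for 11.5% of 27025 genes with an entry. Counted by start site, it was in 9 of 62 promoters of these genes (14.5%) and in 10.2% of 32851 promoters. Among the genes that passed in a comparison, Gclm and Txndc11 had a match, and Sod1, Mgst1, Nfe2l2, Txnrd1, Gstm5 and Gstm7 had one without passing, as had Gsta3, which was not tested. A match describes letters only, and no binding was measured.

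In the group of NRF2, KEAP1, the heme oxygenases and the quinone dehydrogenases, Nqo2 was the gene that passed. Nqo2 encodes a flavoprotein that reduces quinones with dihydronicotinamide riboside as its donor. Its value was 361, 403 and 446 in treated mice, 395, 433 and 391 in EAE mice and 249, 247 and 268 in naive mice. Treated and EAE libraries overlapped and lay wholly above the naive ones. The difference from naive mice was 0.66 ± 0.12 in treated and 0.67 ± 0.12 in EAE mice (limma-trend, Benjamini-Hochberg adjusted p = 0.00445 and 0.00391), or 1.58-fold and 1.59-fold. The calls of Gclm, Gsr and Nqo2 in both comparisons held with any of the 9 libraries left out, and the receptor-share term was the alternative that ended them. With that term, limma-trend gave adjusted p = 0.474, 0.406 and 0.310 for Gclm, Gsr and Nqo2 in treated against naive mice, and 0.175, 0.187 and 0.143 in EAE against naive mice. The differences were not smaller with it: those of Gclm, Gsr and Nqo2 were 0.82 ± 0.39, 1.05 ± 0.44 and 1.21 ± 0.41 in treated and 0.94 ± 0.28, 1.01 ± 0.31 and 1.05 ± 0.29 in EAE against naive mice. Over all 17 alternatives the adjusted p ran, in that gene order, 0.00111 to 0.474, 0.000323 to 0.406 and 0.000588 to 0.310 for treated mice, and 0.000219 to 0.175, 0.000161 to 0.187 and 0.000548 to 0.143 for EAE mice.

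**Figure D2:**
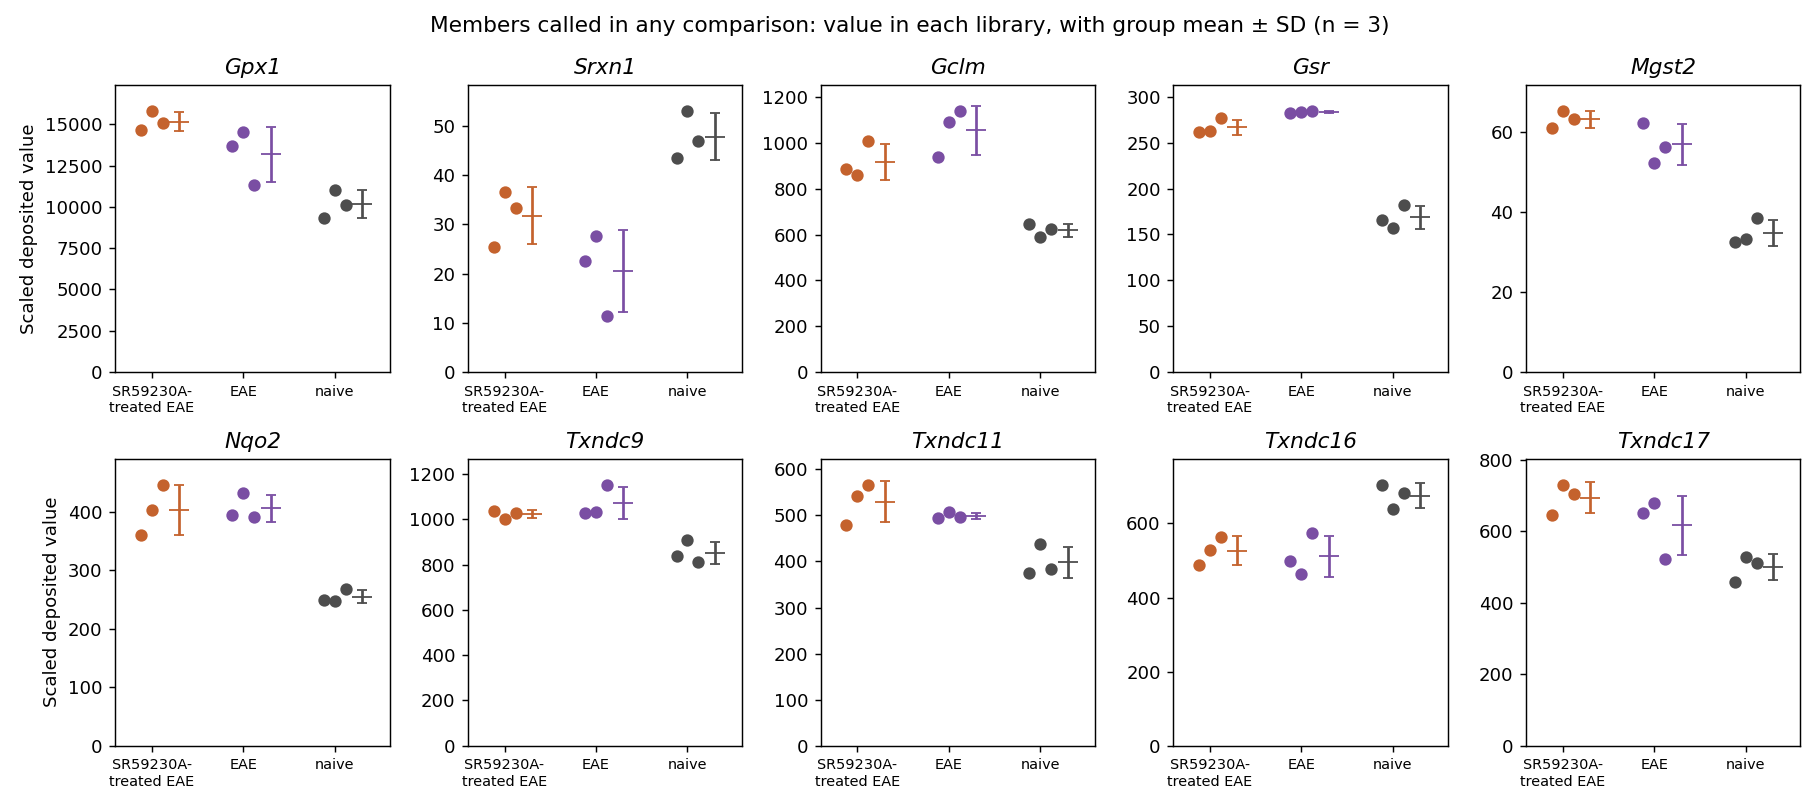
Scaled value per library (linear axes starting at 0) of the 10 genes that passed in at least 1 comparison, with treated, EAE and naive mice from left to right, a point per mouse and bars for the mean ± SD of 3. Gclm, Gsr and Nqo2 show all immunized mice above all naive mice, and Srxn1 and Txndc16 show the naive mice above.

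The first of the start sites that RefSeq lists for Nqo2, at chr13:33964409-33964658 (+ strand, GRCm38.p6), is shown as the contrasting case, a gene that rose in both immunized groups and whose 250 bases hold no match to the motif, so no base is in capitals.
Nqo2 promoter: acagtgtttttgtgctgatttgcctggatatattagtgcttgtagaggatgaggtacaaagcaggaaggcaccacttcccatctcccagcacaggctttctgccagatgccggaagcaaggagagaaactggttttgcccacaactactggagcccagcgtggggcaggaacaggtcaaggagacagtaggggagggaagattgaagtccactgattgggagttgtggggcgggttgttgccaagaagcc

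Nqo1, the classical NRF2 target among the quinone dehydrogenases, did not pass. Its low values were 14.2, 15.3 and 16.7 in treated, 12.6, 23.5 and 11.5 in EAE and 24.3, 40.7 and 17.8 in naive mice, where the EAE libraries overlapped the naive ones and the treated libraries lay just below them. Its differences from naive mice, -0.73 ± 0.42 and -0.75 ± 0.42 in treated and EAE mice, did not pass (limma-trend, Benjamini-Hochberg adjusted p = 0.255 and 0.260). Hmox1, the inducible heme oxygenase, had 40.7, 53.0 and 37.8 in treated, 50.6, 19.4 and 30.2 in EAE and 63.9, 47.4 and 108 in naive mice. The groups overlapped, with naive replicate 3 the highest library, and the difference of -1.13 ± 0.38 in EAE against naive mice did not pass (limma-trend, Benjamini-Hochberg adjusted p = 0.0719). It passed, lower, without EAE replicate 1 or naive replicate 2 (limma-trend adjusted p = 0.0175 and 0.0407, within a range of 0.0175 to 0.956 over 17 alternatives). Hmox2, the constitutive heme oxygenase, averaged 2019.6 ± 210.0, 1979 ± 90.4 and 1785 ± 72.4 in treated, EAE and naive mice.

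The transcripts of NRF2 and of its inhibitor passed in no comparison. Nfe2l2 had 487, 462 and 449.8 in treated, 434, 422 and 452 in EAE and 439, 418 and 439 in naive mice, with differences from naive mice of 0.11 ± 0.10 and 0.014 ± 0.10 in treated and EAE mice. Its 95% interval in EAE against naive mice was -0.21 to 0.23. Keap1, the inhibitor, averaged 366 ± 29.8 in treated, 329 ± 43.2 in EAE and 389.8 ± 26.6 in naive mice, and its interval in EAE against naive mice was -0.54 to 0.031. NRF2 is regulated mainly at the level of its protein, which RNA does not measure.

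Srxn1 and Nqo1, both known targets of NRF2 in mouse cells, had lower mean values in both immunized groups than in naive mice, while Gclm and Gsr, also known targets, were higher, and of the lower pair only Srxn1 passed, in EAE mice. Srxn1 encodes sulfiredoxin, which repairs over-oxidized peroxiredoxins. It measured 25.4, 36.7 and 33.3 in treated mice, 22.6, 27.6 and 11.5 in EAE mice and 43.6, 53.1 and 47.0 in naive mice. The naive libraries were all above the immunized ones, and the treated libraries overlapped the EAE ones at the top of the EAE range. Srxn1 fell in EAE against naive mice by 1.27 ± 0.35 on the log2 scale (limma-trend, Benjamini-Hochberg adjusted p = 0.0322), to a 2.41-fold lower value. That call was lost without naive replicate 1 or naive replicate 2 (limma-trend adjusted p = 0.0533 and 0.0560) and ranged over 0.00955 to 0.819 in 17 alternatives. Treated against naive mice differed by -0.59 ± 0.35, which did not pass (limma-trend, Benjamini-Hochberg adjusted p = 0.270). Treated against EAE mice differed by 0.68 ± 0.35, with an interval of -0.082 to 1.44, so a call in EAE mice and none in treated mice does not show that these groups differ.

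The Srxn1 promoter (GRCm38.p6, chr2:152105274-152105523, + strand, the 250 bases before the start) is given because this gene moved opposite to Gclm in EAE mice. It holds no TGACNNNGC. Capitals mark TGAGTCAGC, 45 to 37 bases before the start, a string of the kind bound by AP-1 and by NRF2 or BACH1 with small MAF proteins, which was sought after this promoter had been read. That string, on either strand, was present for 1 of the 46 genes (2.17%), Srxn1, and for 0.407% of 27025 genes with an entry. Because the string was taken from this promoter, its match in Srxn1 was known beforehand, and these shares are not compared. TGACTCAGC, the form of TGACNNNGC that contains an AP-1 site, was in none of the promoters of the 46 genes and in 0.390% of all 32851 promoters.
Srxn1 promoter: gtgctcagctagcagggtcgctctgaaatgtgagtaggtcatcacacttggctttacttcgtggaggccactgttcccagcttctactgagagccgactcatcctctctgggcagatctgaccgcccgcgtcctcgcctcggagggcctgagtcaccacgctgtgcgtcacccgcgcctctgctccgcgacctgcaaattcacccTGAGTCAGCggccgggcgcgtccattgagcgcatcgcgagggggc

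The other peroxiredoxin genes did not pass. Prdx3, the mitochondrial peroxiredoxin, came nearest, with 186, 192 and 195 in treated, 208, 211 and 206 in EAE and 150.0, 169 and 153 in naive mice. The naive libraries were lowest and the treated ones lay between the naive and the EAE libraries without overlap. Its difference in EAE against naive mice was 0.41 ± 0.13 (limma-trend, Benjamini-Hochberg adjusted p = 0.0571). It passed without EAE replicate 2 or 3, without naive replicate 2 and without treated replicate 1 or 3 (limma-trend adjusted p = 0.0489, 0.0308, 0.0188, 0.0299 and 0.0344, within 0.00551 to 0.765 over 17 alternatives). Prdx2, the abundant cytosolic form of red cells and their precursors, averaged 1921 ± 116 in treated, 1872 ± 265 in EAE and 1816 ± 135 in naive mice. Prdx4, of the endoplasmic reticulum, had 136, 99.9 and 94.4 in treated, 123, 140.2 and 146 in EAE and 146, 149 and 121 in naive mice. Prdx5, found in mitochondria and peroxisomes, averaged 857 ± 46.5 in treated, 866 ± 68.6 in EAE and 781 ± 26.5 in naive mice. Prdx6, which uses glutathione in place of thioredoxin, averaged 1729.5 ± 214 in treated, 1730.4 ± 85.0 in EAE and 1638 ± 302 in naive mice. Reads of Prdx6 and of its near copy Prdx6b (8.42 ± 1.46 in treated, 8.53 ± 2.18 in EAE and 17.7 ± 10.1 in naive mice) may have been split between them, so both are uncertain. Prdx6b passed, lower, in EAE mice and in treated mice against naive mice only without naive replicate 2 (limma-trend adjusted p = 0.0409 and 0.0395, within 0.0409 to 0.719 and 0.0395 to 0.689 over 17 alternatives each). Its value was 6.63 in that library and 20.3 and 26.3 in the other naive libraries. Immunized values lay near the minimum of 10 for testing, at 7.12, 8.15 and 9.99 in treated and 9.03, 6.14 and 10.4 in EAE mice. Those passes of Prdx6b rest on leaving out the low naive library and are not read as a result.

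Of the glutathione peroxidases, Gpx1 rose in treated mice. Gpx1 encodes the cytosolic and mitochondrial selenoenzyme that reduces hydrogen peroxide. It had 14635, 15801 and 15046 in treated mice, 13699.6, 14528 and 11331 in EAE mice and 9312, 11042 and 10142 in naive mice. The 3 groups did not overlap at all, with the treated libraries highest and the naive ones lowest. In treated against naive mice the difference was 0.58 ± 0.13 (limma-trend, Benjamini-Hochberg adjusted p = 0.0119), or 1.50-fold, and it was lost without scaling (adjusted p = 0.0699 by limma-trend, range 0.00150 to 0.661 over 17 alternatives). Its difference was 0.37 ± 0.13 in EAE against naive mice and did not pass (limma-trend, Benjamini-Hochberg adjusted p = 0.0732), though it did without EAE replicate 3 or naive replicate 2 (limma-trend adjusted p = 0.0113 and 0.0394, range 0.0113 to 0.634). Treated against EAE mice differed by 0.21 ± 0.13 (interval -0.070 to 0.49), which was not past the threshold although the libraries separated. Gpx3, the extracellular form, had low values that overlapped, averaging 18.7 ± 5.55 in treated, 14.8 ± 6.28 in EAE and 8.97 ± 7.54 in naive mice. It passed in treated against naive mice only without naive replicate 3 (limma-trend adjusted p = 0.0417, range 0.0417 to 0.393). The naive values of Gpx3 were 8.11, 1.90 and 16.9, so in that refit it entered the tests through immunized libraries alone. That pass is not read as a result. Gpx7, of the endoplasmic reticulum, averaged 37.0 ± 3.86 in treated, 32.4 ± 9.45 in EAE and 50.7 ± 14.8 in naive mice and passed in no comparison.

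Neither superoxide dismutase passed. Sod1, the copper and zinc enzyme of the cytosol, had 7335, 7892 and 7595 in treated, 7288, 7737 and 5987 in EAE and 5774, 6325 and 6253 in naive mice. EAE replicate 3 lay within the naive range while the other EAE libraries and all treated libraries were above it. Without that library Sod1 passed in EAE against naive mice (limma-trend adjusted p = 0.0351, against 0.307 with all libraries and a range of 0.0351 to 0.634). In treated against naive mice its difference of 0.32 ± 0.11 passed without EAE replicate 2 or 3 (limma-trend adjusted p = 0.0421 and 0.0156, against 0.0855 with all libraries and a range of 0.00700 to 0.655). Sod2, the manganese enzyme of mitochondria, had 1062, 1085 and 1073 in treated, 1215, 1293 and 1005 in EAE and 924, 894 and 1017 in naive mice. It too passed in EAE against naive mice once EAE replicate 3 was left out (limma-trend adjusted p = 0.00752, against 0.0883 with all libraries and a range of 0.00752 to 0.276). Cat, catalase of the peroxisome, averaged 51.7 ± 10.5 in treated, 51.3 ± 9.09 in EAE and 54.3 ± 3.56 in naive mice, and its interval in EAE against naive mice, -0.64 to 0.45, was wide.

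Thioredoxins, thioredoxin reductases and glutaredoxins gave no call. Txn1, the cytosolic thioredoxin, averaged 4428 ± 152 in treated, 4561 ± 534 in EAE and 3912 ± 455 in naive mice, and its mitochondrial counterpart Txn2 1471 ± 40.4 in treated, 1425 ± 138 in EAE and 1276 ± 72.4 in naive mice. Txnrd1, the cytosolic reductase and a known NRF2 target, averaged 2279 ± 54.8 in treated, 2419.9 ± 137 in EAE and 2217 ± 101 in naive mice, a difference of 0.13 ± 0.089 in EAE against naive mice with an interval of -0.068 to 0.32. Txnrd2, the mitochondrial reductase, was below every naive library in all 6 immunized ones, with 48.8, 43.8 and 45.5 in treated, 37.9, 47.1 and 45.9 in EAE and 67.9, 73.0 and 53.5 in naive mice. Its differences from naive mice, -0.47 ± 0.23 in treated and -0.56 ± 0.23 in EAE mice, did not pass (limma-trend, Benjamini-Hochberg adjusted p = 0.185 and 0.134). Txnrd3, known for its role in the testis, averaged 229 ± 29.7 in treated, 205 ± 45.3 in EAE and 265 ± 40.0 in naive mice. Glrx, the cytosolic glutaredoxin that removes glutathione from protein thiols, averaged 988 ± 89.7 in treated, 1012 ± 53.7 in EAE and 884 ± 29.4 in naive mice. Glrx2, the mitochondrial glutaredoxin, had 304, 306 and 284 in treated, 265, 262 and 246 in EAE and 291, 307 and 294 in naive mice. The EAE libraries of Glrx2 were below those of both other groups, with a difference of 0.21 ± 0.11 in treated against EAE mice and an interval of -0.036 to 0.46.

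Membrane and soluble glutathione transferases, which conjugate glutathione to electrophiles, gave 1 call, Mgst2 in treated mice. Mgst2, a microsomal enzyme that also makes leukotriene C4, measured 61.0, 65.2 and 63.3 in treated, 62.3, 52.2 and 56.3 in EAE and 32.4, 33.2 and 38.5 in naive mice. All immunized libraries were above all naive ones. Mgst2 rose by 0.85 ± 0.22 in treated against naive mice (limma-trend, Benjamini-Hochberg adjusted p = 0.0236), or 1.80-fold, a call lost without treated replicate 2 or without scaling (limma-trend adjusted p = 0.0509 and 0.0933, range 0.00192 to 0.660 over 17 alternatives). Its difference of 0.70 ± 0.22 in EAE against naive mice missed the threshold (limma-trend, Benjamini-Hochberg adjusted p = 0.0530). It passed with 7 of the 9 libraries left out in turn, EAE replicates 2 and 3, naive replicates 2 and 3 and each treated replicate, with limma-trend adjusted p between 0.0276 and 0.0492 (range 0.00532 to 0.542 over 17 alternatives). Mgst1, of microsomes and the outer mitochondrial membrane, had 333, 417 and 463 in treated, 426, 395 and 384 in EAE and 288, 239.8 and 352 in naive mice. Its differences from naive mice were 0.47 ± 0.16 and 0.47 ± 0.16 in treated and EAE mice (limma-trend, Benjamini-Hochberg adjusted p = 0.0755 and 0.0776). Mgst1 passed in both comparisons without naive replicate 3 or without treated replicate 1, with limma-trend adjusted p of 0.0192 and 0.0309 for treated mice and 0.0189 and 0.0432 for EAE mice (ranges 0.0192 to 0.235 and 0.0189 to 0.159). Mgst3, the remaining microsomal gene, averaged 199 ± 13.1, 187 ± 31.9 and 167 ± 16.9 in treated, EAE and naive mice.

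None of the 12 soluble transferases tested passed. Gstk1, the kappa-class enzyme of mitochondria and peroxisomes, was the farthest from naive mice, with 11.2, 13.2 and 13.3 in treated, 14.4, 13.3 and 13.5 in EAE and 27.4, 24.6 and 28.2 in naive mice. Every immunized library was below every naive library. The differences were -1.03 ± 0.33 in treated and -0.91 ± 0.34 in EAE mice (limma-trend, Benjamini-Hochberg adjusted p = 0.0593 and 0.0939). Gstk1 passed, lower, in treated against naive mice without any 1 of the EAE libraries or without naive replicate 2 (limma-trend adjusted p = 0.0329, 0.0205, 0.0206 and 0.0321, range 0.00507 to 0.924) and in EAE against naive mice without treated replicate 1 (0.0366, range 0.00987 to 0.841). Gstm7 averaged 28.6 ± 3.50 in treated, 30.2 ± 8.03 in EAE and 44.6 ± 6.48 in naive mice. The median difference of the 12 genes was -0.11 in treated and -0.00098 in EAE against naive mice, with 4 of 12 and 6 of 12 values above 0. Their differences ran between -1.03 and 0.31 in treated mice and between -0.91 and 0.27 in EAE mice, a span that takes in Gstm1, Gstm2, Gstm4, Gstm5, Gstt1, Gstt2 and Gstz1. Of the genes not yet named, Gsta4 passed, lower, in treated against naive mice without EAE replicate 1, 2 or 3 or naive replicate 2 (0.0397 to 0.0440), and Gsto1, of the omega class, passed, higher, in EAE against naive mice without EAE replicate 3 (0.0286), both as limma-trend adjusted p (ranges 0.0173 to 0.932 and 0.0286 to 0.299). Members of the mu class are near copies of each other, so that reads may have been split among them and their values are uncertain. Whether reads were split within the alpha and theta classes was not tested.

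**Figure D3:**
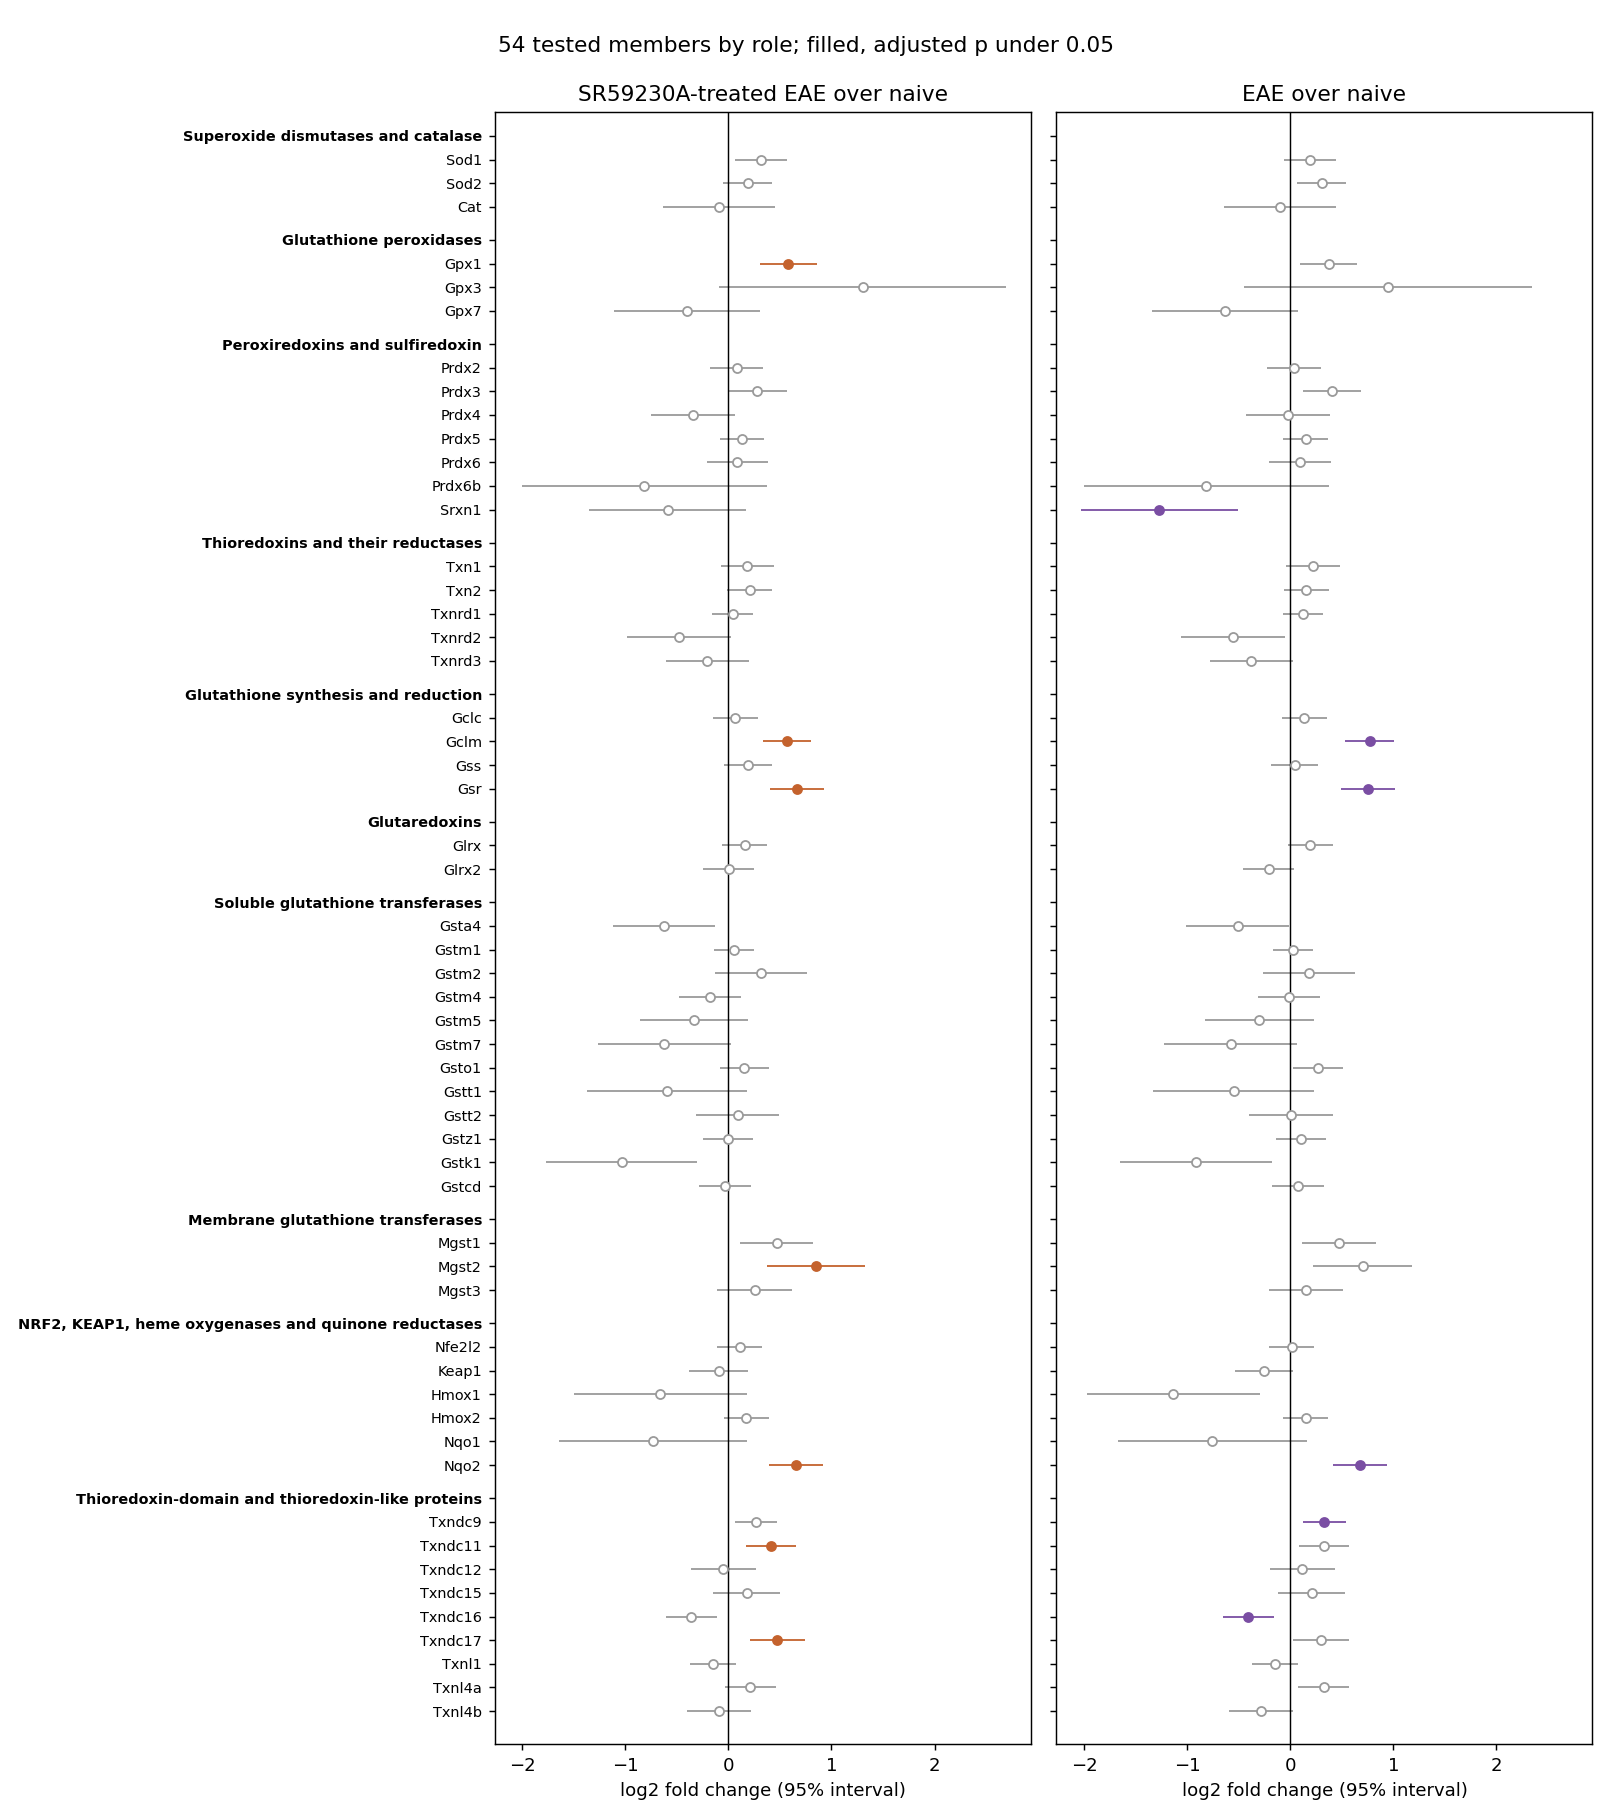
Log2 difference from naive mice with its 95% interval for each tested gene, by role, in treated mice (left panel) and EAE mice (right panel), with filled symbols for genes past the adjusted threshold. Filled symbols lie above 0 in treated mice and on both sides of 0 in EAE mice, where Srxn1 and Txndc16 are the lower ones.

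Proteins with a thioredoxin fold, whose substrates are often other than peroxides, gave calls in both directions. Txndc9, which modulates the chaperonin that folds tubulin and actin, had 1037, 1003 and 1027 in treated, 1028, 1033 and 1153 in EAE and 837, 907 and 811 in naive mice. All immunized libraries exceeded all naive ones. It rose by 0.33 ± 0.094 in EAE against naive mice (limma-trend, Benjamini-Hochberg adjusted p = 0.0359), and the call was lost without naive replicate 1 or 3, without scaling or with upper-quartile scaling (limma-trend adjusted p = 0.0693, 0.0572, 0.155 and 0.0906, range 0.00530 to 0.952). Its difference of 0.27 ± 0.093 in treated against naive mice (limma-trend, Benjamini-Hochberg adjusted p = 0.0772) passed without any 1 of the EAE libraries or without naive replicate 2 (limma-trend adjusted p = 0.0431, 0.0402, 0.0220 and 0.0318, range 0.0104 to 0.911). Txndc16, a protein of the endoplasmic reticulum, moved the other way, with 487, 529 and 564 in treated, 498, 465 and 573 in EAE and 704, 639 and 682 in naive mice. It fell by 0.41 ± 0.11 on the log2 scale in EAE against naive mice (limma-trend, Benjamini-Hochberg adjusted p = 0.0346), lost without EAE replicate 2, naive replicate 1 or scaling (limma-trend adjusted p = 0.0599, 0.0802 and 0.0586, range 0.00700 to 0.721). In treated against naive mice the difference was -0.36 ± 0.11 (limma-trend, Benjamini-Hochberg adjusted p = 0.0530), and it passed without any 1 of the EAE libraries, without naive replicate 2 or without treated replicate 3 (limma-trend adjusted p = 0.0336, 0.0247, 0.0135, 0.0396 and 0.0402, range 0.00749 to 0.908).

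Txndc11 and Txndc17 were called in treated mice. Txndc11, which takes part in the folding of dual oxidases, had 480.1, 542 and 566 in treated, 494, 507 and 496 in EAE and 374, 437 and 384 in naive mice. It rose by 0.41 ± 0.11 in treated against naive mice (limma-trend, Benjamini-Hochberg adjusted p = 0.0293), but not without naive replicate 1, treated replicate 2 or treated replicate 3, nor without scaling or with upper-quartile scaling (limma-trend adjusted p = 0.0685, 0.0635, 0.0564, 0.204 and 0.0712, range 0.00507 to 0.829). The EAE libraries were also above the naive ones, and their difference of 0.33 ± 0.11 passed only without naive replicate 2, treated replicate 1 or treated replicate 3 among the libraries left out (limma-trend adjusted p = 0.0228, 0.0336 and 0.0432, against 0.0704 with all libraries, range 0.0156 to 0.742). Txndc17, a cytosolic disulfide reductase, had 646, 731 and 705 in treated, 651, 678 and 523 in EAE and 459, 529.7 and 512 in naive mice. EAE replicate 3 lay within the naive range, as it did for Sod1. The difference of Txndc17 was 0.47 ± 0.12 in treated against naive mice (limma-trend, Benjamini-Hochberg adjusted p = 0.0244), lost without naive replicate 1, treated replicate 2 or scaling, or with upper-quartile scaling (limma-trend adjusted p = 0.0655, 0.0610, 0.171 and 0.0558, range 0.00277 to 0.575). It was 0.30 ± 0.12 in EAE against naive mice and passed without EAE replicate 3 (limma-trend adjusted p = 0.0148, against 0.130 with all libraries, range 0.0148 to 0.552). The other thioredoxin-domain and thioredoxin-like genes, Txndc12, Txndc15, Txnl1, Txnl4a and Txnl4b, passed in no comparison, though Txnl4a passed, higher, in EAE against naive mice without treated replicate 3 or EAE replicate 1 or 3 (0.0397 to 0.0471) by limma-trend (adjusted p = 0.0760 with all libraries, range 0.0267 to 0.299).

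Treatment with SR59230A was compared with EAE alone for all 54 genes, and no gene passed. The smallest adjusted p of the 54 was 0.998 (limma-trend, Benjamini-Hochberg), and none had an unadjusted p under 0.05, while 3.86% of all genes did. The 95% intervals of all 54 genes held 0, and their median arm was 0.28 on the log2 scale. These intervals are not adjusted for the number of genes, so true differences well above 0.28 could go uncalled. Outside the 54, the erythroid marker Aqp1 differed by 1.44 ± 0.24 and was not called (limma-trend, Benjamini-Hochberg adjusted p = 0.244). Of the genes raised in both immunized groups, Gclm differed by -0.20 ± 0.11 (interval -0.44 to 0.034) and Nqo2 by -0.015 ± 0.12 (interval -0.28 to 0.24). For 6 genes the libraries did not overlap, beside 16.1% of all genes, of which 8.50% were higher and 7.60% lower in treated mice. Gpx1, Glrx2 and Txnl4b, a relative of the spliceosomal protein Txnl4a, were higher in each treated library than in each EAE library. Prdx3, Gsr and Gstcd, a protein with a glutathione transferase domain, were lower in each treated library. Gstcd averaged 364 ± 4.35 in treated and 392 ± 9.14 in EAE mice, and Txnl4b 156 ± 8.45 in treated and 137 ± 10.6 in EAE mice. A p that misses the threshold does not show that treated and EAE mice were alike.

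**Figure D4:**
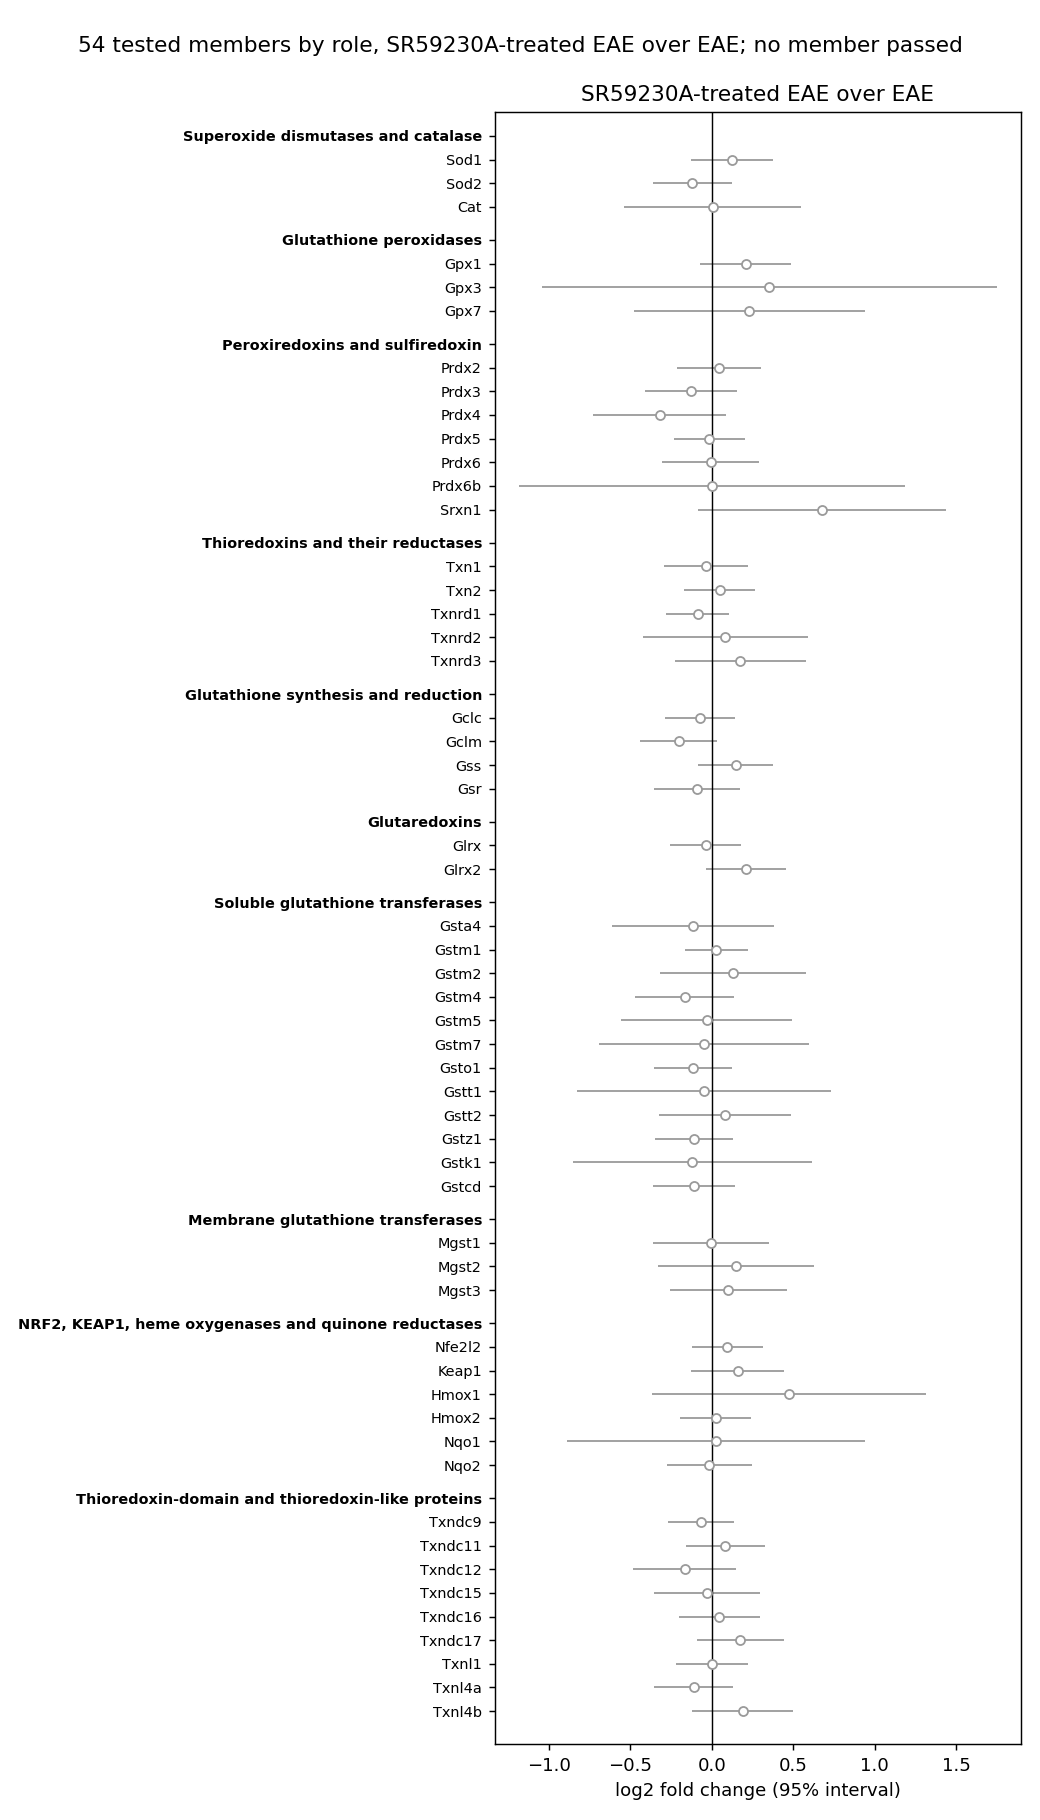
Log2 difference of treated against EAE mice with its 95% interval for each tested gene, ordered by role. All 54 intervals cross 0, and the widest belong to genes with low values such as Gpx3, Prdx6b and Nqo1.

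The neighbouring redox genes were a list of 104 symbols chosen by textbook role, with earlier results of these data known. Some genes were listed under both an older and a newer symbol. Of the symbols, 78 were in the table and 77 were tested, in the same model. In treated against naive mice 18 passed, 14 higher and 4 lower (23.4%), and in EAE against naive mice 21 passed, 14 higher and 7 lower (27.3%), beside 15.0% and 14.4% of all genes. In both comparisons 13 of them were called, and in treated against EAE mice none was. Without naive replicate 1 the EAE count was 13. For treated mice the count was 10 without naive replicate 1 and 11 without treated replicate 2, and it was 28 and 32 without EAE replicate 2 and without EAE replicate 3. In that order, calls over all genes in treated mice were 1237, 1354, 2948 and 3309, and without naive replicate 1 they were 1242 in EAE mice. Without scaling, 8 of these genes passed in treated and 12 in EAE mice, and 1073 and 1059 of all genes. Calls lost without scaling were those of Dpp3, Ggt1, Ggt5, Lap3, Nadk, Park7, Pgd, Sephs2, Taldo1 and Tkt in treated mice (limma-trend adjusted p = 0.0529 to 0.374) and of Abcc4, Blvra, Blvrb, G6pdx, Me2, Pgd, Pstk, Sepp1 and Tkt in EAE mice (0.0596 to 0.216). Upper-quartile scaling ended those of Dpp3, Ggt5, Park7, Pgd, Sephs2, Taldo1 and Tkt in treated mice (0.0885 to 0.140) and of Blvra, Me2, Pstk, Slc7a11 and Tkt in EAE mice (0.0544 to 0.120). A change of pseudocount or of the filter ended calls of Dpp3 and Pgd in treated and of Me2 and Pstk in EAE mice. With the receptor share as a term all 18 calls in treated mice and 18 of the 21 in EAE mice were lost (adjusted p = 0.0956 to 0.819 and 0.0913 to 0.996), while 16 differences in each comparison were larger with it. For the genes called in 1 comparison with naive mice and not in the other, a call in one group alone does not show that the groups differ, and their differences between treated and EAE mice did not pass (limma-trend adjusted p = 0.998 for each of the 13).

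Enzymes that supply NADPH, the reductant used by Gsr and the thioredoxin reductases, gave 6 calls among 12 genes in each comparison with naive mice, all higher, where 10.4% of all genes were called higher in treated and 9.24% in EAE mice. Both counts use the same naive libraries. Idh1, cytosolic isocitrate dehydrogenase, had 409.9, 402 and 405 in treated, 491, 523 and 399 in EAE and 236, 210.4 and 282 in naive mice, all immunized libraries above all naive ones. Its differences from naive mice were 0.75 ± 0.14 and 0.96 ± 0.14 in treated and EAE mice (limma-trend, Benjamini-Hochberg adjusted p = 0.00549 and 0.00143). G6pdx, which opens the pentose phosphate pathway, rose by 0.68 ± 0.12 in treated and 0.54 ± 0.12 in EAE mice (limma-trend, Benjamini-Hochberg adjusted p = 0.00404 and 0.0121). Pgd and Tkt of the same pathway and Nadk, the kinase that makes NADP, also rose in both, by 0.32, 0.35 and 0.55 in treated and 0.44, 0.36 and 0.58 in EAE mice. Taldo1, transaldolase, passed in treated mice (0.34 ± 0.10) and Me2, mitochondrial malic enzyme, in EAE mice (0.33 ± 0.10). With 1 library left out, calls in treated mice were lost for Pgd without treated replicate 2 or 3 or naive replicate 1 or 2 (0.0543 to 0.0948), Tkt without treated replicate 2 or 3 or naive replicate 1 (0.0515 to 0.0661) and Taldo1 without treated replicate 1 or 2 or naive replicate 1 (0.0633 to 0.1001), and calls in EAE mice for Tkt without EAE replicate 2 or naive replicate 1 (0.0524 and 0.0653) and Me2 without naive replicate 1 (0.0797), each value a limma-trend adjusted p. In the other comparison Taldo1 differed by 0.30 ± 0.10 in EAE mice and passed without treated replicate 3 or EAE replicate 3 (0.0445 and 0.0120), and Me2 differed by 0.23 ± 0.10 in treated mice and passed without EAE replicate 3 (0.0474).

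In cystine uptake and glutathione turnover, 3 of 12 genes passed in treated and 2 of 12 in EAE mice against naive mice, all higher. These shares, 25.0% and 16.7%, stand beside 15.0% and 14.4% of all genes and are not read as a result about the list. Ggt1, gamma-glutamyltransferase, which breaks down glutathione outside the cell, had 16.3, 15.3 and 16.7 in treated, 26.2, 26.6 and 21.9 in EAE and 5.07, 3.79 and 6.57 in naive mice. Its low values separated fully from the naive ones, with differences of 1.50 ± 0.39 and 2.10 ± 0.39 in treated and EAE mice (limma-trend, Benjamini-Hochberg adjusted p = 0.0243 and 0.00505). Slc7a11, the cystine transporter and a known NRF2 target, had 11.2, 8.15 and 14.4 in treated, 8.13, 27.6 and 18.8 in EAE and 5.07, 4.74 and 1.88 in naive mice and passed in EAE mice at 1.90 ± 0.57 (limma-trend, Benjamini-Hochberg adjusted p = 0.0463). All naive values of Ggt1 and Slc7a11 were under the minimum for testing, so both genes entered the tests through immunized libraries alone. A gene with naive values this low could be tested only if it was higher in immunized libraries. The calls of Ggt1 and Slc7a11 were kept when no minimum was applied. Ggt5, a relative of Ggt1, and Lap3, an aminopeptidase, passed in treated mice, by 0.39 ± 0.11 and 0.46 ± 0.11. The call was lost for Ggt5 without treated replicate 2 or 3 or naive replicate 1 or 2 (0.0522 to 0.0982) in treated mice and for Slc7a11 without EAE replicate 2 or 3 or naive replicate 1 or 3 (0.0533 to 0.0968) in EAE mice, while Lap3 passed in EAE mice without treated replicate 1, 2 or 3, EAE replicate 3 or naive replicate 3 (0.00430 to 0.0482), each value a limma-trend adjusted p.

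Of 11 partners and regulators of NRF2, 1 passed in treated mice (9.09%) and none in EAE mice against naive mice, beside 15.0% and 14.4% of all genes. That gene was Dpp3, a peptidase that can bind KEAP1, with 0.36 ± 0.11 (limma-trend, Benjamini-Hochberg adjusted p = 0.0497). Of 16 further NRF2 target genes tested, 1 passed in treated mice (6.25%) and 6 in EAE mice (37.5%), beside the same shares of all genes. Osgin1, an oxidative stress-induced growth inhibitor, was lower in both, with 125, 138 and 153 in treated, 116, 168 and 158 in EAE and 365, 608 and 230.1 in naive mice. It fell by 1.42 ± 0.29 and 1.35 ± 0.29 on the log2 scale in treated and EAE mice (limma-trend, Benjamini-Hochberg adjusted p = 0.00811 and 0.0104). Called in EAE mice and not in treated mice were 5 further genes: Ephx1, microsomal epoxide hydrolase, fell by 0.90, Akr1c13, an aldo-keto reductase, by 0.80 and Blvrb, biliverdin reductase B, by 0.54, while Blvra, biliverdin reductase A, rose by 0.47 and the exporter Abcc4 by 0.43. Calls were lost with 1 library left out for Dpp3 without treated replicate 2 or 3 or naive replicate 1, 2 or 3 (0.0543 to 0.106) in treated mice, and for Ephx1 without naive replicate 1 or 3 (0.0778 and 0.0556), Blvrb without naive replicate 1 or 3 (0.0757 and 0.0658) and Blvra without naive replicate 1 (0.0763) in EAE mice (limma-trend adjusted p). In treated against naive mice the differences were -0.73 ± 0.24 for Ephx1, -0.55 ± 0.18 for Akr1c13, -0.22 ± 0.16 for Blvrb, 0.41 ± 0.14 for Blvra and 0.22 ± 0.088 for Abcc4, each in the direction of EAE mice. By limma-trend adjusted p, treated mice passed for Ephx1 without EAE replicate 1, 2 or 3 or naive replicate 2 (0.00651 to 0.0456), Akr1c13 without EAE replicate 1, 2 or 3 or naive replicate 3 (0.0290 to 0.0400), Blvra without treated replicate 1, EAE replicate 1, 2 or 3 or naive replicate 2 (0.0166 to 0.0467) and Abcc4 without EAE replicate 2 or 3 (0.0498 and 0.0350).

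Among 26 genes of sulfoxide repair and selenoprotein synthesis, 7 passed in each comparison with naive mice, 4 higher and 3 lower. This share of 26.9% stands beside 15.0% of all genes in treated and 14.4% in EAE mice. Msrb1, a selenoprotein that repairs methionine sulfoxide with thioredoxin, had 1188, 1467 and 1798 in treated, 1403, 1829.5 and 1304 in EAE and 582, 594 and 656 in naive mice. It rose by 1.27 ± 0.16 and 1.30 ± 0.16 in treated and EAE mice (limma-trend, Benjamini-Hochberg adjusted p = 0.000542 and 0.000429), the smallest adjusted p of the 77 genes in both comparisons. Msrb3, which repairs the same lesion without selenium, fell by 0.86 ± 0.21 in treated and 1.15 ± 0.21 in EAE mice on the log2 scale. Sesn1, a sestrin of the p53 response, fell by 0.74 in treated and 0.82 in EAE mice, and Sepp1, the selenium carrier selenoprotein P, by 0.46 in treated and 0.45 in EAE mice. Sephs2, which makes the selenium donor for selenocysteine, and Sep15, of the endoplasmic reticulum, rose in both, by 0.35 and 0.58 in treated and 0.52 and 0.51 in EAE mice. Park7, a redox-sensitive chaperone, rose in treated mice by 0.37 and Pstk, a kinase of selenocysteine synthesis, in EAE mice by 0.34. Of these, the calls lost with 1 library left out were those of Park7 without treated replicate 2 or 3 or naive replicate 1 (0.0527 to 0.0616), Sephs2 without treated replicate 2 or 3 or naive replicate 1 (0.0644 to 0.0716) and Sepp1 without treated replicate 1 or naive replicate 1 or 3 (0.0622 to 0.0727) in treated mice, and of Pstk without naive replicate 1 (0.0706) and Sepp1 without EAE replicate 2 or 3 or naive replicate 1 or 3 (0.0633 to 0.0746) in EAE mice (limma-trend adjusted p). Park7 differed by 0.33 ± 0.10 in EAE against naive mice and passed there without treated replicate 1, 2 or 3, EAE replicate 3 or naive replicate 3 (0.00962 to 0.0495), and Pstk by 0.25 ± 0.10 in treated against naive mice, where it passed without EAE replicate 3 (0.0426).

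**Figure D5:**
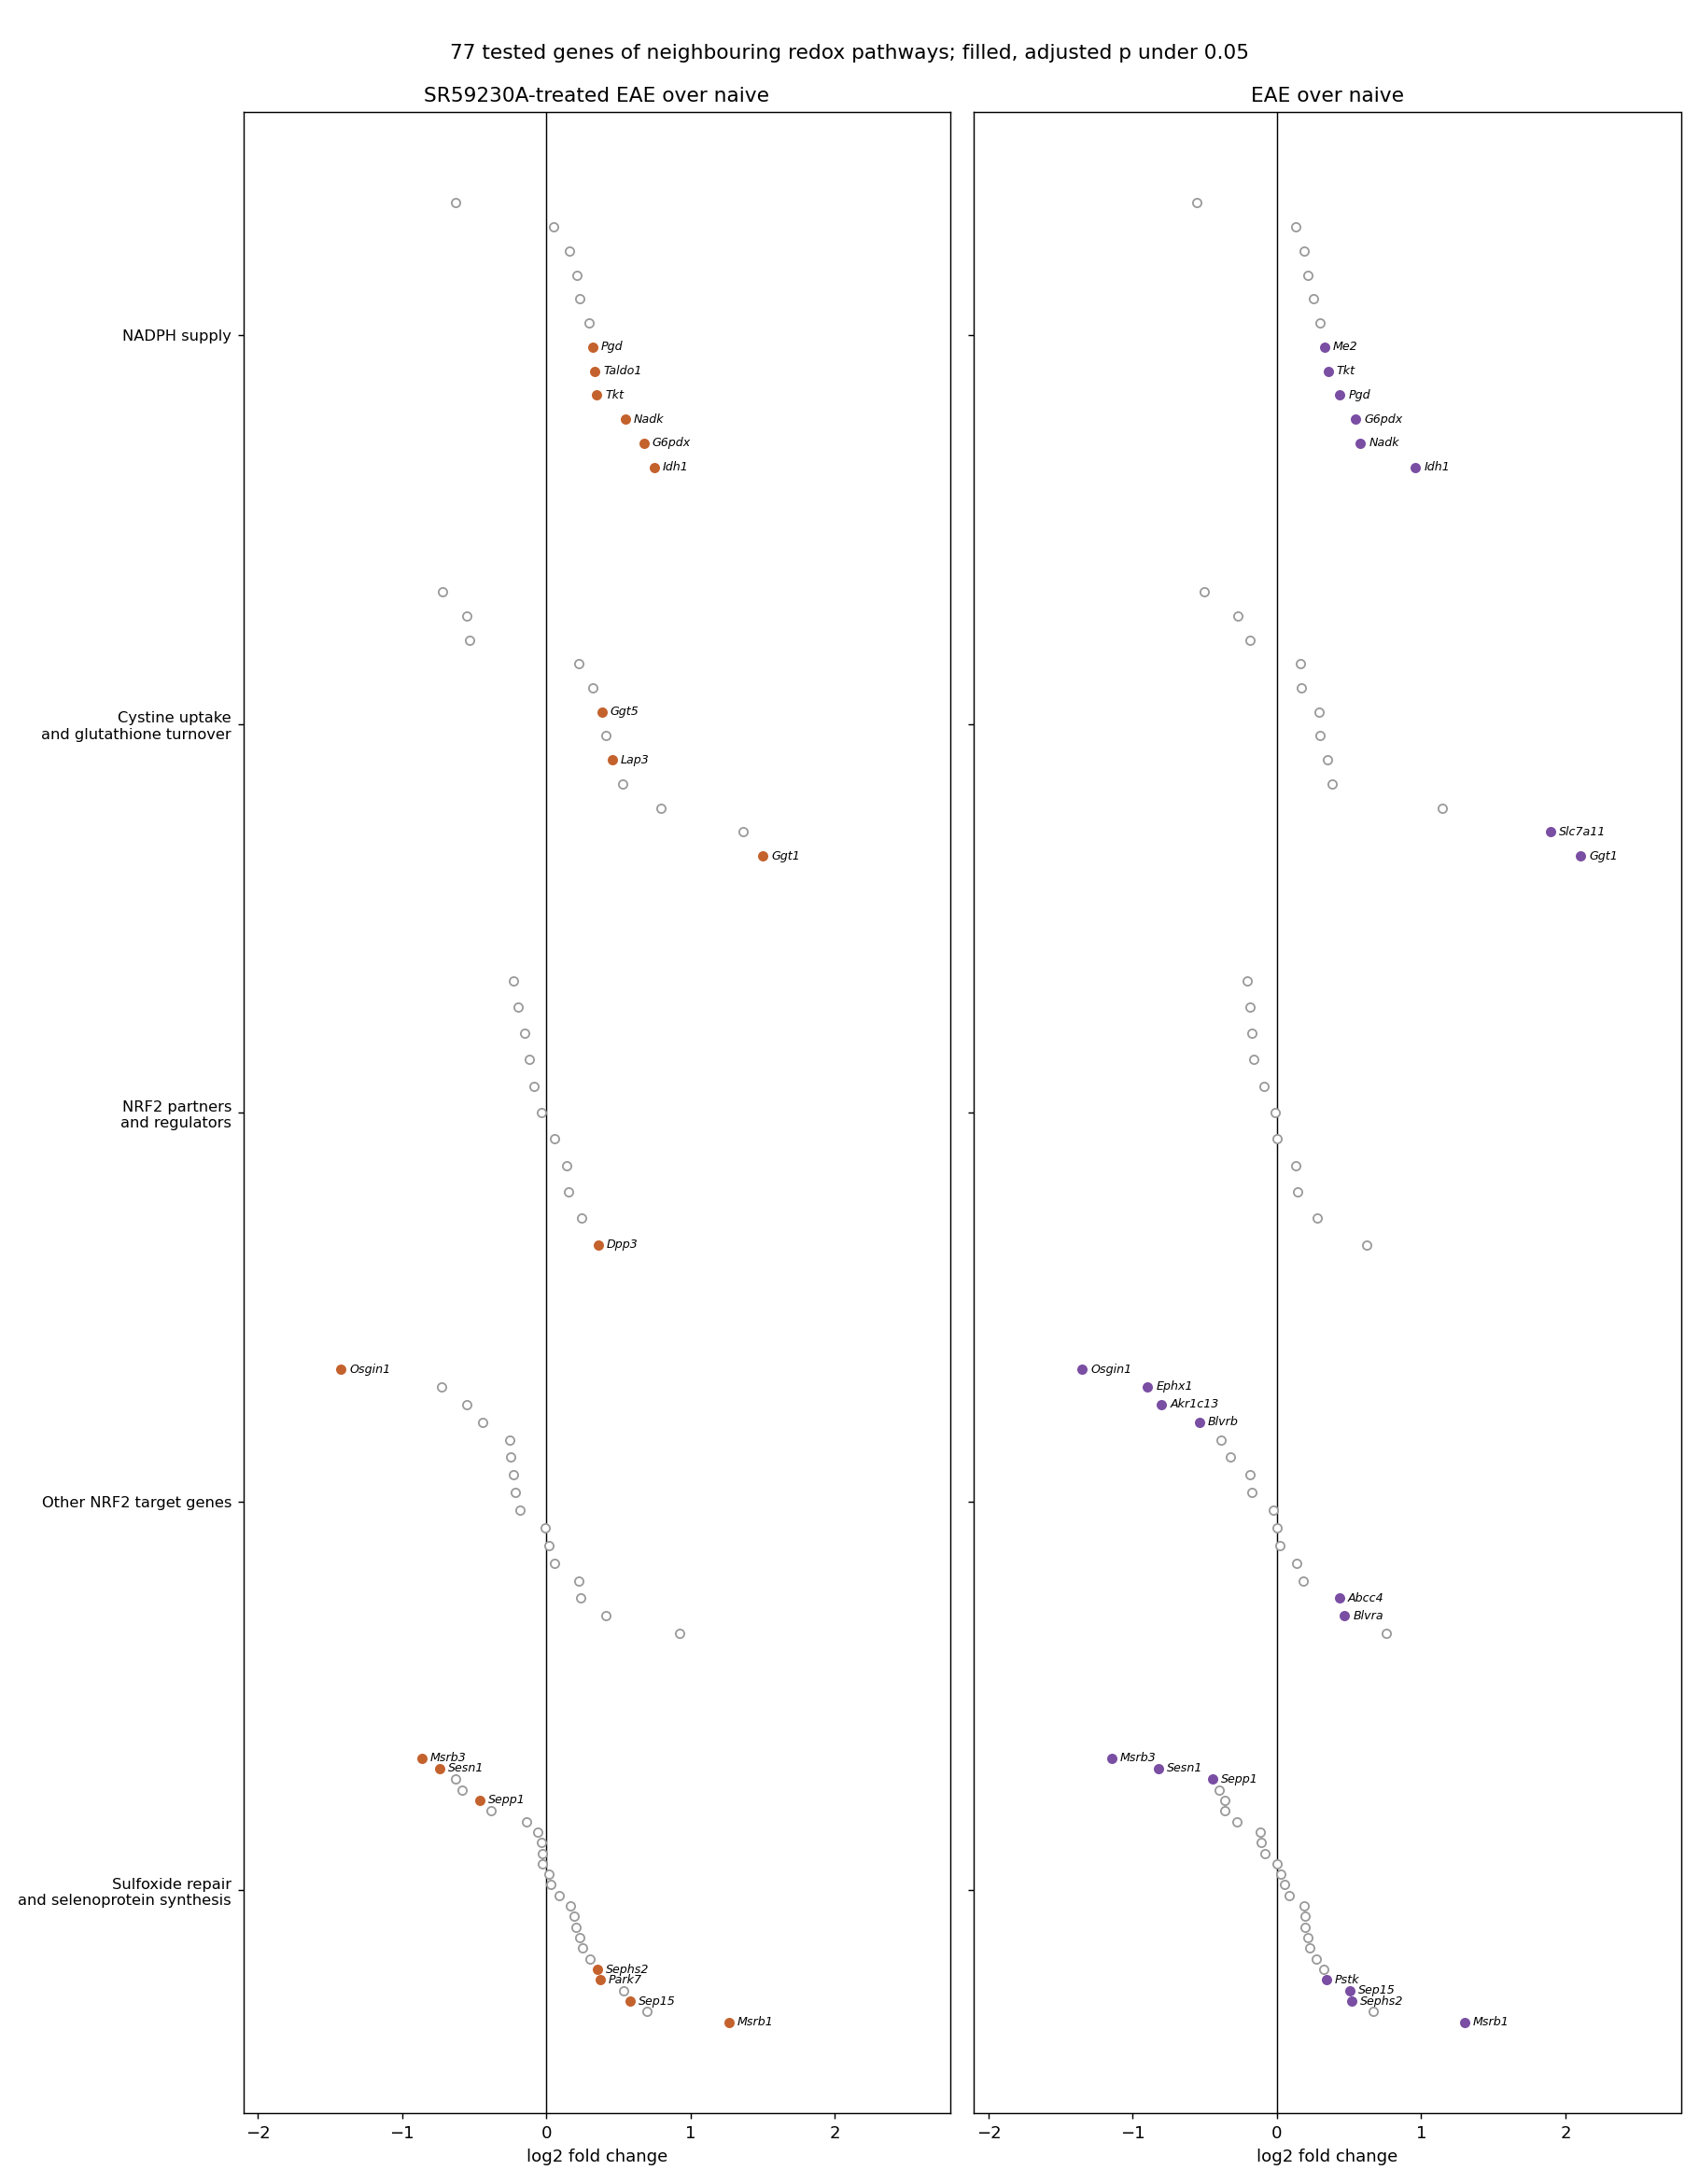
Log2 difference from naive mice in treated and in EAE mice (left and right panel) of the 77 neighbouring redox genes tested, 1 point per gene, in order of size within each role, with filled and named points for genes past the adjusted threshold. The filled NADPH points lie above 0 in both panels, and Osgin1, Msrb3, Sesn1 and Sepp1 lie below 0 in both.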

How the data were processed

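RNA from LSK cells sorted from the bone marrow of 9 mice was prepared with the RNeasy micro kit, per the labels' protocols. A single table was deposited by the authors, with whole numbers per gene symbol (14940 rows) and library (9 columns). The values are treated as a score, because the deposited values obey 2 linear relations across libraries (principal components 7 and 8 of their natural log hold 7.65e-05% and 6.77e-05% of the variance, 99.4% and 99.8% of it within groups), which read counts would not. DESeq2 is named, with neither version nor role, in the submitters' processing notes. Aligner, genome build and annotation were not given in the sources used here. Depth is unknown, so no counting interval is given.

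Each library was scaled by its median-of-ratios factor (0.900 to 1.11). The genes reaching a scaled value of at least 10 in 3 libraries (12892) were tested, 2-sided, on log2(value + 1) with limma-trend (limma 3.58.1, R 4.3.3) on the 9 libraries together, and p was adjusted by Benjamini-Hochberg over the tested genes (threshold 0.05). Its terms were 3 groups and the 2 missing directions as covariates, leaving 4 residual degrees of freedom (prior 7.48). Intervals are 95% intervals of that model. The script was also run on simulated data, where the fit was given the true missing directions instead of estimating them. The calls in that run therefore do not test how well the directions are estimated. Alternatives changed the scaling, pseudocount, filter, covariates and libraries. Libraries were grouped by their treatment label, and replicate numbers follow the order of deposition. Named genes were those that passed, the 2 in each role farthest from naive mice in EAE, and a list of core enzymes; Hmox2, Mgst3, Gstcd, Txnl4b, Gsta4, Gsto1 and Txnl4a were added after their values were seen. The members, lists and tests were chosen with earlier results of these data known. Promoters and motif counts are from RefSeq (GRCm38.p6).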

Additional observations from a re-analysis of the deposited data

How the results depend on the processing

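The number of the 54 antioxidant genes called in treated against naive mice (7 as reported) was 4 without scaling, 14 without the missing directions as covariates, 18 with only the 6 libraries compared and 0 with the receptor share as a term, and with 1 library left out it ran between 4 and 12. In EAE against naive mice (6 as reported) it was 18 without the missing directions, 12 with only the 6 libraries compared and 0 with the receptor share, and ran between 3 and 14 with 1 library left out. Of the neighbouring redox genes, 18 were called in treated against naive mice as reported, against 8 without scaling, 34 without the missing directions, 35 with only the 6 libraries compared, 0 with the receptor share and between 10 and 32 with 1 library left out. In EAE against naive mice the 21 calls became 12 without scaling, 4 with the receptor share and between 13 and 26 with 1 library left out. Calls over all genes moved as well, from 1938 in treated and 1854 in EAE against naive mice. In treated mice they were 3885 without the missing directions, 4399 with only the 6 libraries and 29 with the receptor share. In EAE mice they were 3471, 2668 and 100 in that order. In treated against EAE mice no gene of either list was called under any of the alternatives run. The share term turned the difference of Sepp1 round, to 0.49 in treated and 0.20 in EAE against naive mice (limma-trend adjusted p = 0.663 and 0.795), and turned no other called difference round. Fits with 1 library left out had 1 missing direction as a covariate and fits of 6 libraries had none, against 2 as reported, so these counts changed libraries and covariates together. Fits without the missing directions count more residual degrees of freedom than the values hold. The causes of the other shifts were not tested. No paired analysis was possible because the replicate numbers only follow the order of deposition and pair no mice. Depth is unknown, so what it limits cannot be given, and 3 libraries per group, with values lacking 2 directions, limit every test.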
